A study of Mus musculus with 9 samples.

Results

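A list of 35 genes that are recurrently mutated in human myelodysplastic syndrome (MDS) was followed through RNA-seq counts of mouse haematopoietic stem and progenitor cells. The genes were taken by name from the count table, in which all 35 were found among 24060 named genes, and 34 of them passed the filter on low counts among 13355 genes that did so. The exception was Wt1, a zinc finger transcription factor, which had 0 counts in every library. A count of 0 allows up to 3 counts, which is 0.13 to 0.156 CPM (counts scaled to library size) in these libraries and covers counting error only. Mutations themselves were not read here: the table gives how much transcript of each gene was counted, in cells of engineered mice and not of patients.

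The libraries were made from LSKs (Lin−Sca1+Kit+ cells, which include blood stem cells and multipotent progenitors), sorted as CD45.2 donor cells from lethally irradiated CD45.1 recipients. The recipients had received bone marrow of C57BL/6 control animals (3 libraries), of animals with the NUP98-HOXD13 fusion (NHD13; 2 libraries) or of animals with NHD13 and an inducible MSI2 transgene (NHD13/MSI2; 4 libraries). NHD13 is driven by the Vav promoter, which is active in blood cells, and MSI2 is driven by a doxycycline-responsive promoter at the Col1a1 locus with the rtTA activator expressed from Rosa26. The labels give an age of 4 months for every sample, and the feeding of doxycycline lasted 3 months. The feeding is described for the mice in general, whereas the library names carry the word dox for the NHD13/MSI2 libraries alone, so the treatment of the control and NHD13 animals was not settled here. The names of the control libraries also differ among themselves, with the word bulk in replicate 1 and the words MPP and HSC in replicates 2 and 3. Nothing says that the libraries of a group came from separate animals, so that p-values measure the spread between these libraries.

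In MDS, blood stem cells acquire mutations that give their clone an advantage while the blood cells they make are dysplastic and few. The genes that recur fall into a small number of classes: writers and erasers of DNA and histone methylation, the cohesin ring that holds sister chromatids and chromatin loops, the spliceosome proteins that recognise the 3′ splice site, isocitrate dehydrogenases, transcription factors and adaptors, and signalling proteins. Many of the mutations lower the dose of the gene product, whereas those of SF3B1, SRSF2, U2AF1, IDH1, IDH2, SETBP1 and JAK2 alter its activity, so that transcript level and mutation are separate questions.

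Between 19242153 and 23013493 reads per library were counted on named genes. NHD13/MSI2 replicate 4 stood apart from the other libraries: 1.54% of its reads fell on 77 ribosomal protein genes, against 3.65% to 4.81% in the others, and its 10 most abundant genes held 11.3% of its reads, against 5.74% to 8.12%. The Y-linked gene Uty was between 102 and 144 CPM in 7 libraries and at most 1.31 CPM in control replicates 1 and 3, in which Xist was at 888 and 866 CPM. In the same 7 libraries the Y-linked genes Eif2s3y and Kdm5d were at 122 to 180 and 37.8 to 70.2 CPM. A further Y-linked gene, Ddx3y, was at 229 CPM in control replicate 2 and at 172 and 250 CPM in NHD13. In NHD13/MSI2 it was at 3.83 to 17.6 CPM, and the cause was not tested. Counts of the mouse gene Msi2 were 77.1 to 88.0 CPM in NHD13/MSI2 replicates 1 to 3, 241 CPM in replicate 4, 111 and 139 CPM in NHD13 and 223 to 316 CPM in control, and were therefore not raised in the libraries labelled NHD13/MSI2, whose group rests on the label. Whether reads of the MSI2 transgene were counted under that name is not known here, so these counts cannot show whether the transgene was induced. The summed CPM of 4 genes of the LSK gate or fraction (Kit, Ly6a, Cd34, Flt3) were 4094 to 4510 in control, 2169 to 2497 in NHD13 and 2004 to 2752 in NHD13/MSI2. Cd34 and Flt3 were called lower in NHD13/MSI2 over control (adjusted p under 0.01, edgeR) and Kit was not called (0.589-fold), whereas Ly6a, which encodes the gate marker Sca1, ran the other way at 79.3 to 89.8, 48.3 to 69.0 and 98.7 to 375 CPM, with adjusted p of 0.0221 over NHD13 and 0.0167 over control in edgeR. The summed CPM of 5 monocyte and macrophage genes were 40.8 to 69.7, 428 to 585 and 898 to 1025 in the same order, and those of 7 neutrophil genes were 2214 to 4180, 3141 to 4425 and 8434 to 14360. The neutrophil sum followed Mpo, with group means of 1549, 3383 and 10791 CPM, while the granule genes Ngp (693, 147 and 199 CPM), Ltf (231, 35.9 and 62.6 CPM), Camp, S100a8 and S100a9 had higher means in control than in NHD13/MSI2 and were not called. The summed CPM of 6 B cell genes were 46.5 to 57.9, 83.5 to 129 and 262 to 448, those of 6 T cell genes 37.7 to 50.3, 200 to 203 and 50.6 to 86.5, and those of 7 erythroid genes 89.0 to 201, 10.3 to 25.1 and 0.948 to 14.8. Those of 5 megakaryocyte genes were 68.2 to 150, 73.7 to 538 and 9.22 to 35.2, with Itga2b called lower in NHD13/MSI2 over both NHD13 (0.0790-fold) and control (0.125-fold). The T cell sum followed Lck, at 36.1 to 44.1, 192 to 193 and 48.4 to 83.8 CPM. Cd3d, Cd3e and Cd3g were not tested and were at most 0.698 CPM in any library. Cd4 and Cd8a were at most 11.0 and 1.43 CPM and were not called. Of all the genes in these sums Hba-a1 was at 0 in every library. In bulk samples a change in the share of a cell type and a change in RNA per cell cannot be told apart.

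The 3 comparisons were made in a single fit of the 9 libraries with edgeR's quasi-likelihood test, and a gene was called at a Benjamini-Hochberg adjusted p under 0.01. Of the 34 MDS genes tested, 1 was called in NHD13/MSI2 over NHD13 and 1 in NHD13/MSI2 over control, and it was the same gene, Idh1. In NHD13 over control 0 were called. Over all genes tested the called shares were 3.17%, 11.0% and 1.03%. Those called higher, the direction of Idh1, were 0.584% and 4.49% of all genes in the first and second comparison. At an adjusted p under 0.05 the numbers of MDS genes were 1, 6 and 0, where all genes gave 8.81%, 20.6% and 2.89%. In NHD13 over control 4 MDS genes had an unadjusted p under 0.05 (Idh1, Kdm6a, Luc7l2 and Smc1a), where 13.5% of all genes did, and DESeq2 also called 0.

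**Figure D1:**
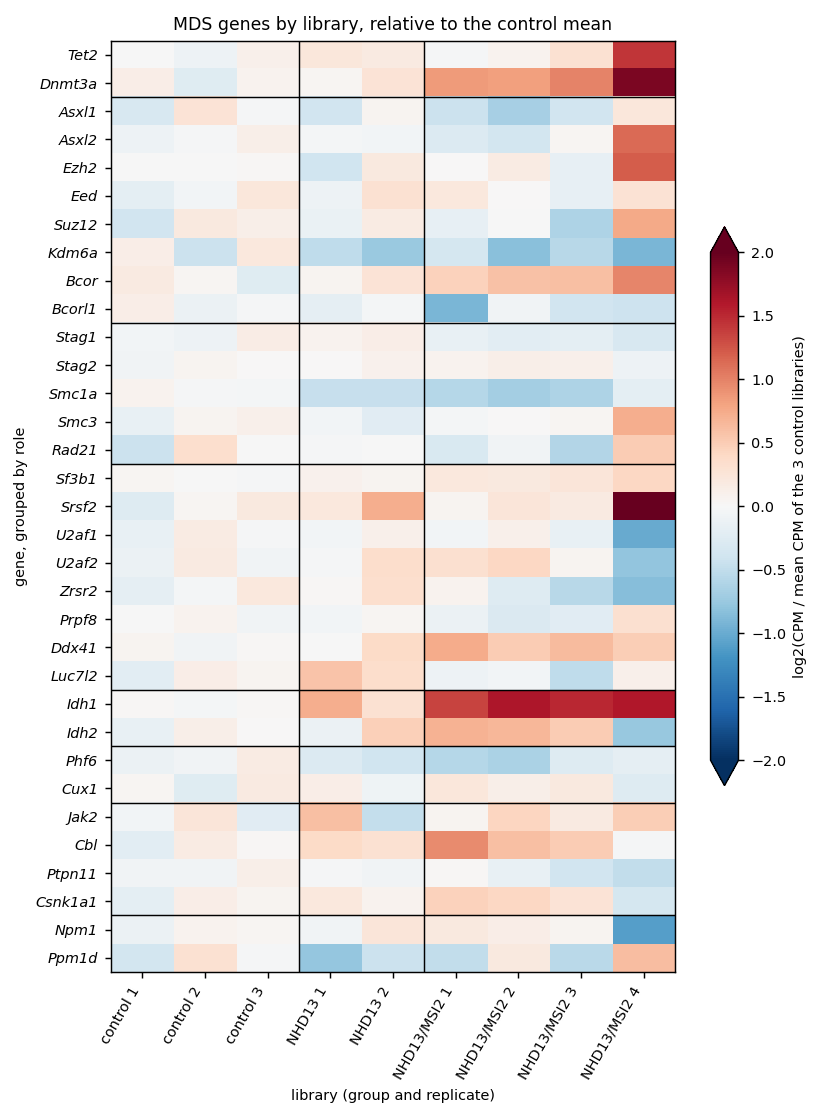
Log2 ratio of each gene's CPM (scaled by TMM, the trimmed mean of M values) to its mean over the 3 control libraries, for 33 MDS genes in rows grouped by role and 9 libraries in columns. Wt1, which had 0 counts, and Setbp1, which had at most 58, are left out. Idh1 is high in all 4 NHD13/MSI2 libraries, whereas Srsf2, Tet2, Ezh2 and Asxl2 are high in replicate 4 of that group.

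The isocitrate dehydrogenases interconvert isocitrate and 2-oxoglutarate, the cosubstrate of the TET dioxygenases and of histone demethylases, with Idh1 in the cytosol and peroxisome and Idh2 in the mitochondrion. Idh1 was called and Idh2 was not. Since the results turn on this pair, the RefSeq windows around their starts (250 bases before to 50 after, GRCm38.p6, minus strand in each case) are shown, with capitals marking GC boxes (GGGCGG or its reverse complement) and CCAAT boxes (CCAAT or its reverse complement). Idh1 has 2 annotated starts.
Idh1 upstream start, chr1:65186430-65186729: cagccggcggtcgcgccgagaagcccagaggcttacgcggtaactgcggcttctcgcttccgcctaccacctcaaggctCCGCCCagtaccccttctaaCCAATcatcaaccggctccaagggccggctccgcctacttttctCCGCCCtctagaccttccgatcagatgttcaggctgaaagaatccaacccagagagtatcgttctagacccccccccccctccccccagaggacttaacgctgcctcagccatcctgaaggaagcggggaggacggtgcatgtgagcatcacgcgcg
Idh1 downstream start, chr1:65179093-65179392: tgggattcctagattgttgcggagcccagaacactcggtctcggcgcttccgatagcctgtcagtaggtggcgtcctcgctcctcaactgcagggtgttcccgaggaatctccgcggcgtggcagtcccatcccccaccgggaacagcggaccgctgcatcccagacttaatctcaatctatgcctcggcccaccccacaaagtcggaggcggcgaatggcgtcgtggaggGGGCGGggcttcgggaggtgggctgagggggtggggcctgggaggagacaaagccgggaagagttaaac
Idh2, chr7:80115301-80115600: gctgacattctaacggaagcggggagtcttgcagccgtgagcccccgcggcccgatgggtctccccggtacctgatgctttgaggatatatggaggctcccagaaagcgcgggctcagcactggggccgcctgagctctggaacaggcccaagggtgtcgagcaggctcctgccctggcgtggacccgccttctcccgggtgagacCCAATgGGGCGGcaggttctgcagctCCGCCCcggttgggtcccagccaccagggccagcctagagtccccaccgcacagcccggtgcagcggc
The upstream Idh1 window held 2 GC boxes and 1 CCAAT box, the downstream window 1 GC box and 0 CCAAT boxes, and the Idh2 window 2 GC boxes and 1 CCAAT box. A GC box is present in 35.7% of the 32851 RefSeq windows of this length and a CCAAT box in 37.4%. The G+C content was 62.0%, 63.7% and 68.3%. The letters thus do not separate the genes, a match is a description and not a site, and the counts do not say which Idh1 start was used. RefSeq windows were found for 27 of the 35 genes.

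Idh1 lies on chromosome 1 from 65158616 to 65186500 on the minus strand (GENCODE M21, GRCm38), with no exon shared with another annotated gene. Its levels were 63.1, 60.4 and 62.8 CPM in control, 103 and 77.0 CPM in NHD13, and 158, 190, 177 and 189 CPM in NHD13/MSI2. No library of any group fell within the range of another group, and the order was control, NHD13, NHD13/MSI2. In NHD13/MSI2 over NHD13 the log2 fold change was 0.99 (SE 0.16, 95% interval 0.62 to 1.36, adjusted p = 0.0071, edgeR quasi-likelihood with Benjamini-Hochberg correction), a 1.99-fold difference. In NHD13/MSI2 over control it was 1.52 (SE 0.14, interval 1.20 to 1.85, adjusted p = 0.000185, the same edgeR test), a 2.88-fold difference. In NHD13 over control it was 0.54 (SE 0.16, adjusted p = 0.151, edgeR), short of the threshold, although both NHD13 libraries were above the 3 controls. The contrasts share libraries and are therefore not independent of each other.

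The call of Idh1 over NHD13 was lost when any library other than NHD13/MSI2 replicate 4 was left out, with adjusted p from 0.0114 to 0.0399 in edgeR, while the change stayed between 0.84 and 1.24. The call over control was kept in 19 of 20 alternatives and lost without control replicates 1 and 3 together (log2 fold change 1.60, adjusted p = 0.0295, edgeR). The summed CPM of the monocyte and macrophage genes and of the B cell genes stood in the same order of groups as Idh1, with 1 of 5 and 1 of 6 genes called higher over NHD13 and 3 of each over control. Among the former, Adgre1 (listed as Emr1; 0.899, 12.5 and 3.04 CPM) and Ccr2 (13.1, 93.0 and 84.1 CPM) had their highest group mean in NHD13, and Ly86 overlapped between NHD13 and NHD13/MSI2. The part of these cell types in the Idh1 difference was not tested.

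Idh2 was at 231, 278 and 256 CPM in control, at 236 and 355 CPM in NHD13 and at 414, 404, 362 and 151 CPM in NHD13/MSI2. The first 3 of the NHD13/MSI2 libraries were above every other library and replicate 4 was below all of them. Its log2 fold change was 0.17 over NHD13 (95% interval −0.65 to 0.99, adjusted p = 0.844, edgeR) and 0.38 over control (interval −0.34 to 1.10, adjusted p = 0.455, edgeR). Without replicate 4 it was 0.42 and 0.63, with adjusted p of 0.145 and 0.0151 in edgeR. Per kilobase of exon, the ratio of Idh1 to Idh2 within a library was 0.203 to 0.256 in control, 0.202 and 0.408 in NHD13, 0.357 to 0.456 in NHD13/MSI2 replicates 1 to 3 and 1.17 in replicate 4. Of 7 further enzymes of isocitrate and 2-oxoglutarate metabolism (among them the Idh3 subunits and Ogdh), 0 were called in any of the 3 comparisons. All 7 had a log2 fold change within 0.5 of 0 over control, where 56.8% of all genes did. Over NHD13 6 of the 7 did, where 61.8% of all genes did.

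**Figure D2:**
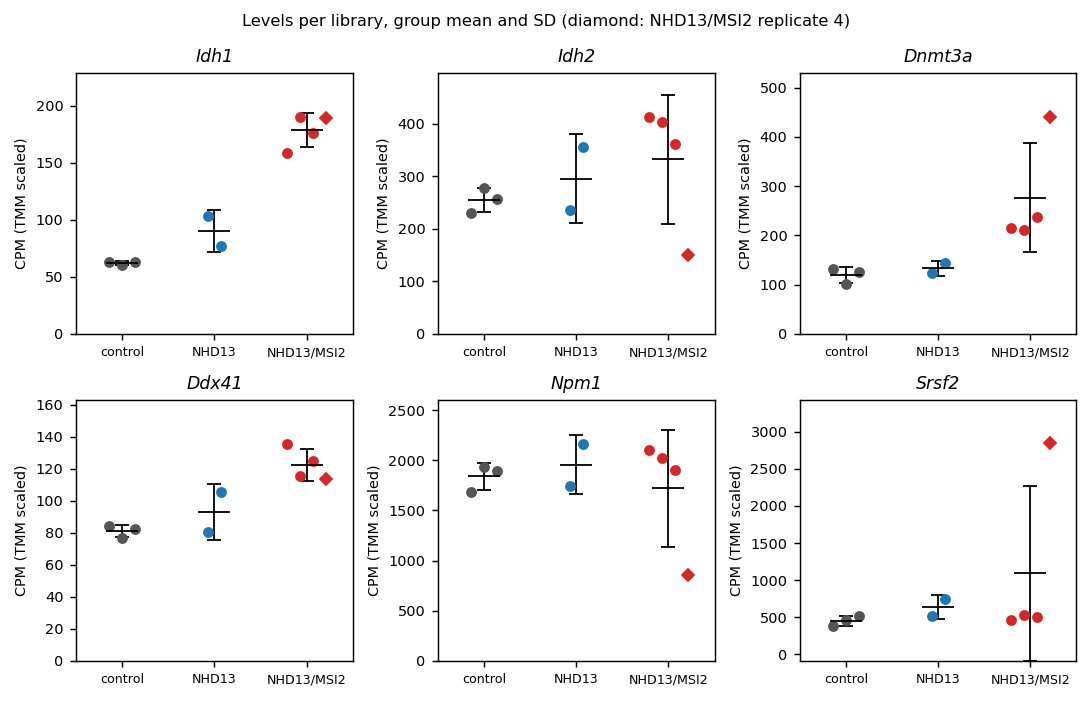
CPM (TMM scaled, linear axes) of Idh1, Idh2, Dnmt3a, Ddx41, Npm1 and Srsf2 in each library, with the mean (long tick) and SD (bar) of each group; diamonds are NHD13/MSI2 replicate 4. Idh1 separates the 3 groups, whereas replicate 4 alone is at 2856 CPM of Srsf2, 854 CPM of Npm1 and 151 CPM of Idh2.

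Dnmt3a, the de novo DNA methyltransferase and a frequently mutated gene of MDS, and Tet2, which oxidises methylcytosine, act on the same mark in opposite directions. Dnmt3a (chromosome 12, 3806007 to 3914443, plus strand) was at 131, 100 and 126 CPM in control, at 123 and 144 CPM in NHD13 and at 215, 211, 238 and 441 CPM in NHD13/MSI2. All 4 NHD13/MSI2 libraries were above the 5 others, and replicate 4 was far above the rest. The log2 fold change over control was 1.21 (SE 0.28, 95% interval 0.59 to 1.83, adjusted p = 0.0126, edgeR) and that over NHD13 was 1.05 (SE 0.32, adjusted p = 0.0776, edgeR), so that neither was called. Without replicate 4 the change over control was smaller, 0.90, but was called (adjusted p = 0.00139, edgeR), and that over NHD13 was 0.74 (adjusted p = 0.0131, edgeR). Tet2 was at 80.9 to 92.8 CPM in control, at 102 and 97.9 CPM in NHD13, at 85.2, 91.2 and 106 CPM in NHD13/MSI2 replicates 1 to 3 and at 234 CPM in replicate 4, with an adjusted p of 0.263 over control in edgeR. Of 7 partners in DNA methylation, among them Dnmt1, Dnmt3b, Tet1 and Tet3, 0 were called in any comparison.

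The Polycomb group holds Ezh2, Eed and Suz12, the core of the PRC2 complex that methylates histone H3 at lysine 27, together with Asxl1 and Asxl2, partners of the BAP1 deubiquitinase, Bcor and Bcorl1 of a variant PRC1 complex, and Kdm6a, which removes the PRC2 mark. None of the 8 was called. Bcor (X chromosome) was at 92.5, 83.8 and 68.7 CPM in control, 85.2 and 99.1 CPM in NHD13 and 112, 123, 123 and 160 CPM in NHD13/MSI2. Every NHD13/MSI2 library was above the 5 others. Its log2 fold change was 0.67 over control (SE 0.17, adjusted p = 0.0205, edgeR) and 0.49 over NHD13 (SE 0.19, adjusted p = 0.167, edgeR).

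The PRC2 core was level in most libraries. Ezh2, the catalytic subunit, was at 125, 125 and 129 CPM in control, 95.2 and 144 CPM in NHD13 and 127, 141, 112 and 293 CPM in NHD13/MSI2, where replicate 4 was far above every other library. Eed spanned 73.4 to 104 CPM over all 9 libraries, and its interval over control, −0.29 to 0.48 on the log2 scale, was among the narrower ones. Suz12 spanned 57.2 to 99.8 CPM in 8 libraries and was at 148 CPM in replicate 4. Asxl2 behaved alike, with 106 to 147 CPM in 8 libraries and 298 CPM in replicate 4, whereas Asxl1 spanned 30.5 to 58.3 CPM with overlapping groups. Bcorl1 was lower, at 13.7 to 16.3 CPM in control, 13.1 and 14.5 CPM in NHD13 and 7.86 to 14.2 CPM in NHD13/MSI2. Of the 15 Polycomb and ASXL partners tested (16 listed, Asxl3 not tested) and of the 8 COMPASS partners of Kdm6a, 0 were called in any comparison.

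Kdm6a (X chromosome, 18162575 to 18279936, plus strand) was at 113, 76.1 and 119 CPM in control, 71.9 and 61.2 CPM in NHD13 and 80.3, 57.7, 70.2 and 54.6 CPM in NHD13/MSI2. The 2 high libraries were control replicates 1 and 3, the libraries with high Xist, while control replicate 2 lay within the range of the NHD13/MSI2 libraries. The log2 fold change was −0.65 over control (SE 0.20, adjusted p = 0.0464, edgeR), and −0.17 without control replicates 1 and 3 (adjusted p = 0.828, edgeR). Kdm6a is a gene that escapes X inactivation and has a Y-linked relative, Uty. The comparison of Kdm6a with control therefore cannot be told apart from the difference in Xist and Y-linked counts. The other X-linked MDS genes are Bcor, Bcorl1, Phf6, Stag2, Smc1a and Zrsr2.

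**Figure D3:**
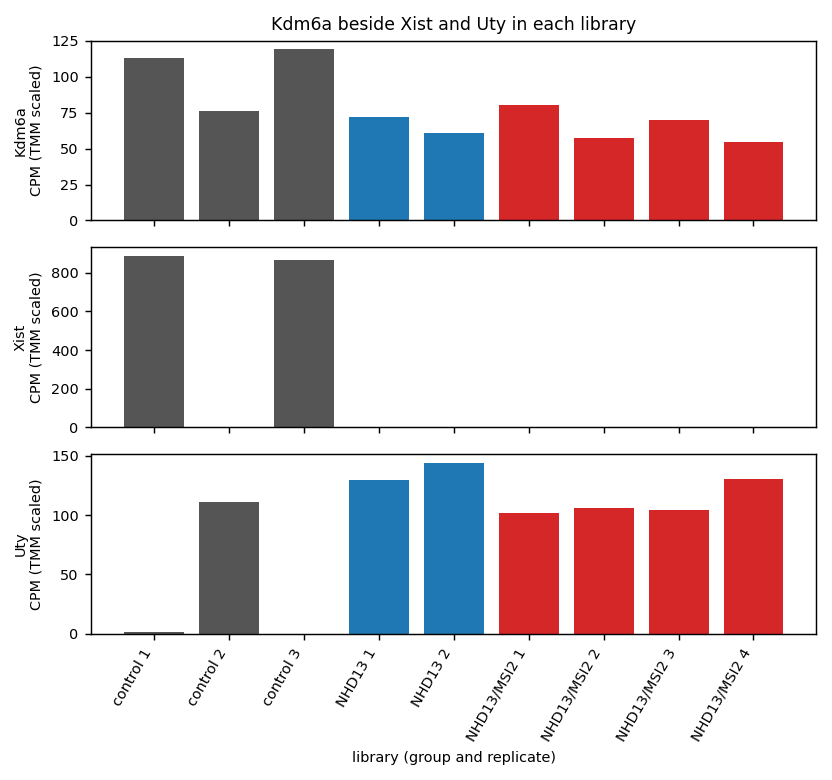
CPM (TMM scaled) of Kdm6a, Xist and Uty in each of the 9 libraries, as bars coloured by group (grey control, blue NHD13, red NHD13/MSI2). Kdm6a is at 113 and 119 CPM in the 2 control libraries with high Xist and at 54.6 to 80.3 CPM in the 7 libraries with Uty.

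Of the cohesin genes, Smc1a, Smc3 and Rad21 form the ring and Stag1 and Stag2 are its alternative further subunits. Smc1a (X chromosome, 152016428 to 152062694, plus strand) was at 524, 492 and 487 CPM in control, 363 and 364 CPM in NHD13 and 337, 314, 325 and 436 CPM in NHD13/MSI2. All 3 controls, including the control library with Y-linked counts, were above the 6 other libraries. In log2 terms the fold change was −0.51 in NHD13/MSI2 over control (SE 0.15, adjusted p = 0.0404, edgeR) and −0.46 in NHD13 over control (SE 0.18, adjusted p = 0.289, edgeR), so it was not called. Without replicate 4 the change over control was −0.62 with an adjusted p of 0.000624 in edgeR, the lowest of 20 alternatives, of which 4 were past the threshold. As a single control library has Y-linked counts, the part of the difference in Xist and Y-linked counts was not tested.

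The other cohesin genes moved little. Stag2, the more abundant of the pair, spanned 383 to 447 CPM in all 9 libraries, and its 95% interval over NHD13 was −0.32 to 0.32 on the log2 scale. Stag1 was at 182, 177 and 209 CPM in control, 200 and 207 CPM in NHD13 and 172, 165, 166 and 153 CPM in NHD13/MSI2, with all 4 NHD13/MSI2 libraries below the others and a log2 fold change over NHD13 of −0.31 (adjusted p = 0.213, edgeR). Smc3 was at 225 to 282 CPM in 8 libraries and at 439 CPM in replicate 4, and Rad21 at 75.6 to 143 CPM in 8 libraries and at 160 CPM in replicate 4. Of 11 cohesin partners, 0 were called in any comparison.

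The splicing genes code for proteins that recognise the branch point and 3′ splice site (Sf3b1, U2af1, U2af2, Zrsr2), an SR protein (Srsf2), the core protein Prpf8, the U1-associated Luc7l2 and the helicase Ddx41. None of the 8 was called. Ddx41 (chromosome 13, 55530410 to 55536658, minus strand) was at 84.2, 76.8 and 82.1 CPM in control, 80.7 and 105 CPM in NHD13 and 136, 116, 125 and 114 CPM in NHD13/MSI2. All 4 NHD13/MSI2 libraries were above the 5 others. On the log2 scale the fold change was 0.60 over control (SE 0.14, adjusted p = 0.0139, edgeR) and 0.40 over NHD13 (SE 0.16, adjusted p = 0.171, edgeR). An antisense gene annotated on the opposite strand covers 17.4% of the Ddx41 exon bases, and whether the libraries kept strand is not stated in the sources used here.

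Srsf2 was at 375, 459 and 513 CPM in control, 519 and 746 CPM in NHD13 and 467, 529, 506 and 2856 CPM in NHD13/MSI2. The first 3 of the NHD13/MSI2 libraries lay among the control and NHD13 values, and replicate 4 was 5.70-fold above their mean. The log2 fold change over control, 1.28 (SE 0.64, adjusted p = 0.203, edgeR), therefore came from that library and was 0.16 without it. The exons of Mettl23 and Mfsd11 on the opposite strand cover 15.6% and 9.74% of the Srsf2 exon bases, so its counts are uncertain to that extent.

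Sf3b1, the splicing gene mutated in ring sideroblast MDS, was at 684, 667 and 657 CPM in control, 710 and 699 CPM in NHD13 and 771, 770, 792 and 888 CPM in NHD13/MSI2. The 3 groups did not overlap, but the difference was small, with a log2 fold change over control of 0.27 (SE 0.13, adjusted p = 0.184, edgeR). Luc7l2 was highest in NHD13, at 113 and 96.9 CPM, against 66.0 to 83.5 CPM in control and 53.8 to 82.2 CPM in NHD13/MSI2, with a log2 fold change of −0.59 in NHD13/MSI2 over NHD13 (adjusted p = 0.0925, edgeR). A non-coding RNA gene annotated on the opposite strand covers 18.9% of the Luc7l2 exon bases, so its counts are uncertain to that extent. Prpf8 spanned 205 to 265 CPM in 8 libraries and was at 314 CPM in replicate 4. U2af1, U2af2 and Zrsr2 were lowest in replicate 4, at 25.8, 16.0 and 15.5 CPM, against 46.5 to 57.6, 25.4 to 37.1 and 19.0 to 35.4 CPM in the 8 other libraries. Zrsr2 has a close relative in the table, Zrsr1, and reads shared by the pair could have been split. Of 17 partners at the 3′ splice site and in the U2 particle, 0 were called in any comparison. Among the 17, 15 (88.2%) had a log2 fold change within 0.5 of 0 over NHD13, where 61.8% of all genes did.

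Phf6, Cux1, Setbp1 and Wt1 are transcription factors or chromatin adaptors. Phf6 (X chromosome) was at 236, 243 and 286 CPM in control, 211 and 193 CPM in NHD13 and 172, 165, 212 and 226 CPM in NHD13/MSI2, and all 6 libraries with NHD13 were below the controls (log2 fold change of NHD13/MSI2 over control −0.40, adjusted p = 0.108, edgeR). Cux1, a gene of the deleted segment of chromosome arm 7q in MDS, spanned 355 to 498 CPM with overlapping groups. Setbp1 was close to the limit of detection, with 19, 7 and 22 counts in control, 58 and 7 in NHD13 and 0, 1, 1 and 8 in NHD13/MSI2. Its log2 fold changes of −3.34 over NHD13 and −2.16 over control had adjusted p of 0.152 and 0.240, and that of NHD13 over control, 1.18 with an adjusted p of 0.843 (edgeR), rests on the 58 counts of NHD13 replicate 1, without which it was −0.93.

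The signalling genes were Jak2, the kinase behind cytokine receptors, Cbl, a ubiquitin ligase that switches such receptors off, the phosphatase gene Ptpn11 and Csnk1a1, a casein kinase gene of the region deleted in del(5q) MDS. None was called. Cbl was at 29.9, 38.7 and 34.9 CPM in control, 44.8 and 42.8 CPM in NHD13 and 66.3, 52.4, 49.2 and 33.9 CPM in NHD13/MSI2. Replicate 4 lay among the controls and the 3 other NHD13/MSI2 libraries were above all of NHD13 and control. Over control the log2 fold change was 0.55 (SE 0.22, adjusted p = 0.110, edgeR), and 0.70 without replicate 4 (adjusted p = 0.00741, edgeR). Csnk1a1 was at 206 to 260 CPM in control, 250 and 273 CPM in NHD13, 287 to 327 CPM in NHD13/MSI2 replicates 1 to 3 and 185 CPM in replicate 4, so that NHD13 overlapped control and replicate 4 was below every other library. Jak2 spanned 23.0 to 48.4 CPM, with its highest and lowest values in the 2 NHD13 libraries, and Ptpn11 spanned 31.2 to 47.7 CPM.

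Npm1, a nucleolar chaperone of ribosome assembly, was the most abundant MDS gene per kilobase of exon, at 690 CPM per kilobase in control. It was at 1688, 1936 and 1895 CPM in control, 1747 and 2167 CPM in NHD13 and 2108, 2026, 1901 and 854 CPM in NHD13/MSI2. The first 8 libraries overlapped between groups and replicate 4 was below all of them. Npm1 has processed pseudogenes, to which reads could have been lost. Ppm1d, a phosphatase that restrains p53, was low, at 6.01 to 9.63 CPM in control, 4.55 and 5.78 CPM in NHD13 and 5.34 to 11.9 CPM in NHD13/MSI2.

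**Figure D4:**
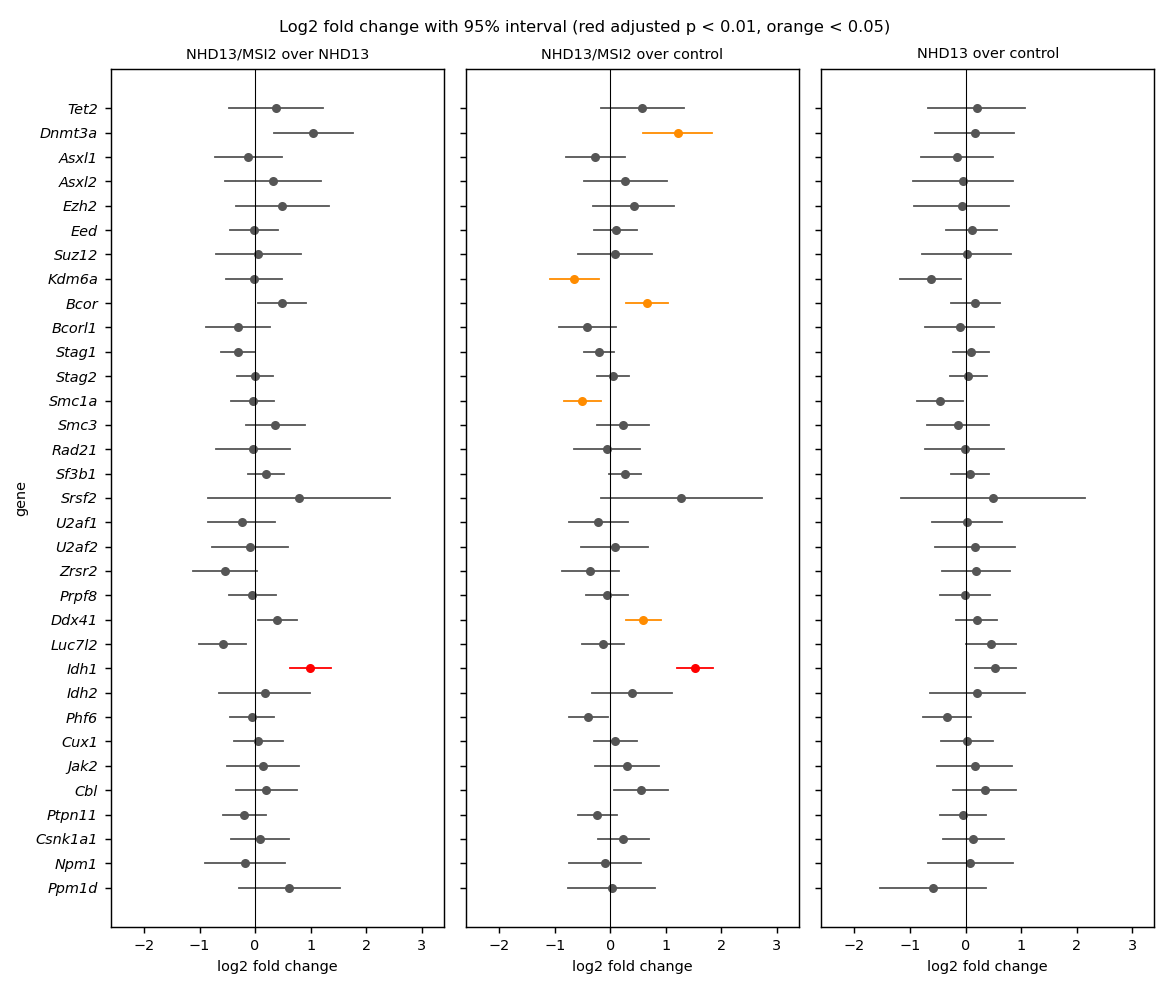
Log2 fold change (points) and 95% interval (lines) of 33 MDS genes in the 3 comparisons, with red for an adjusted p under 0.01 and orange for 0.01 to 0.05 (edgeR, Benjamini-Hochberg). Setbp1 and Wt1 are left out. Idh1 is the single red gene in the first 2 panels, and most other intervals cross 0.

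As a group the 34 genes were centred near 0. Their median log2 fold change was 0.03 in NHD13/MSI2 over NHD13, 0.08 in NHD13/MSI2 over control and 0.08 in NHD13 over control, beside −0.03, −0.01 and 0.02 for all genes tested. The 95% interval of the log2 fold change lay within −1 to 1 for 24, 23 and 28 of the 34, while 45.9%, 46.9% and 47.2% of all genes met this condition. For these genes a 2-fold change in the mean was outside the interval. For the others the interval reached 2-fold or beyond, so that a difference of that size or more was not excluded at this number of libraries. Among them was Idh1 in both NHD13/MSI2 comparisons, where it was called, with intervals of 0.62 to 1.36 and 1.20 to 1.85. The groups did not overlap for 8 of 34 (23.5%) in NHD13/MSI2 over NHD13, where all genes gave 29.9%. They did not overlap for 8 (23.5%) in NHD13/MSI2 over control, against 35.7%, and for 10 (29.4%) in NHD13 over control, against 37.4%. All 3 shares were below those of all genes. The genes above both other groups in all 4 NHD13/MSI2 libraries were Bcor, Ddx41, Dnmt3a, Idh1 and Sf3b1, and Stag1 was below both. The share of all genes that stood apart from both groups was not computed, so these names are a description.

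Replicate 4 of NHD13/MSI2 set the spread of many of these genes. It was above all 8 other libraries for 12 of 34 (35.3%), among them Dnmt3a, Tet2, Ezh2, Asxl2 and Srsf2, where 24.3% of all genes were. It was below all of them for 11 (32.4%), among them Npm1, Idh2, Stag2 and U2af1, where 25.4% of all genes were. It was at least 2-fold from the mean of replicates 1 to 3 for 9 (26.5%), against 31.3% of all genes. The median coefficient of variation of the 34 genes in NHD13/MSI2 was 24.8% with and 10.8% without it, and 11.2% in control. Over all genes tested it was 27.1%, 13.9% and 13.9% in the same order. With replicate 4 left out, 1 MDS gene was called over NHD13 (Idh1) and 5 over control (Cbl, Ddx41, Dnmt3a, Idh1 and Smc1a). These are 2.94% and 14.7% of 34, against 4.86% (646) and 15.5% (2066) of the 13305 genes tested in that setting. Of the partner genes, Kmt2a, Kmt2d and Nfe2 were then also called over NHD13, and Kmt2a, Nfe2, Pds5b and Tet1 over control.

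**Figure D5:**
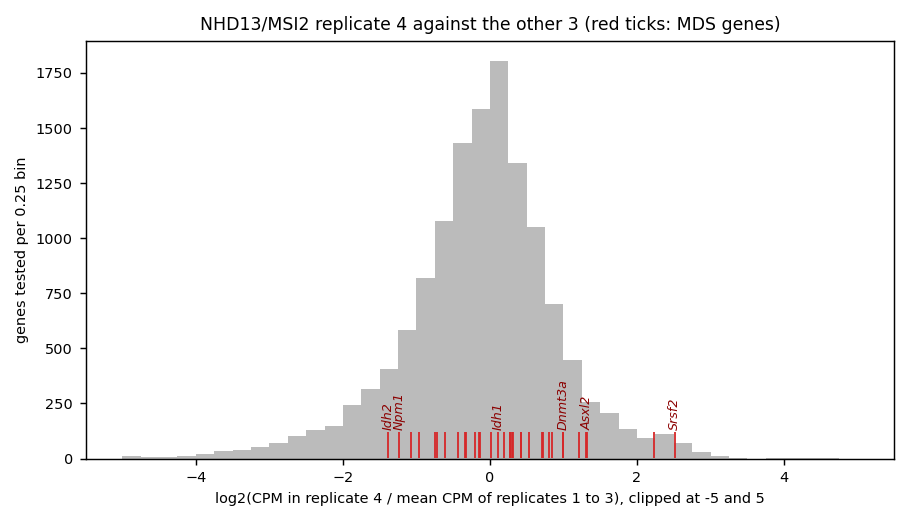
Histogram over all 13355 genes tested of the log2 ratio of CPM in NHD13/MSI2 replicate 4 to the mean of replicates 1 to 3 (0.1 CPM added to each, values beyond 5 in size drawn at 5). Red ticks are the 34 MDS genes tested; Srsf2 is far to the right, Npm1 and Idh2 are to the left, and Idh1 is near 0.

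Genes mutated in MDS that are not on the list of 35 were read as a further group of 18 transcription, signalling and p53 genes. In NHD13/MSI2 over NHD13 1 was called higher and 1 lower, where 0.584% and 2.58% of all genes were. In NHD13/MSI2 over control 2 were called higher and 2 lower, where 4.49% and 6.55% of all genes were. Not all of these are reported here by name. In NHD13/MSI2 over NHD13, Csf3r, the receptor of the granulocyte growth factor, rose (97.2 and 110 CPM in NHD13, 236 to 349 CPM in NHD13/MSI2, log2 fold change 1.42, SE 0.19, adjusted p = 0.00336, edgeR). In NHD13/MSI2 over control Csf3r was higher at an adjusted p under 0.05 (edgeR) and was not called at 0.01. Its 95% interval over control lay within −1 to 1 on the log2 scale. Over control, Runx1 and Cebpa rose, with log2 fold changes of 1.17 and 2.17, and the receptor kinase gene Flt3 fell, with a log2 fold change of −2.01, with adjusted p from 0.00136 to 0.00497 in edgeR. The call of Csf3r was lost without control replicate 2 or without either NHD13 library, and those of Runx1 and Flt3 were lost without any single control library and that of Flt3 also without NHD13/MSI2 replicate 1 or 2; without control replicates 1 and 3 together 0 of the 18 were called. In NHD13 over control 0 of the 18 were called at 0.01. At an adjusted p under 0.05 (edgeR) Runx1 was higher and Csf3r was lower in NHD13 than in control. At that threshold 2.10% of all genes were higher and 0.786% lower. Flt3 is also 1 of the 4 genes of the LSK list given above. Trp53 was at 477 to 564 CPM in control and NHD13 and at 593 to 627 CPM in NHD13/MSI2, a log2 fold change of 0.22 over control (adjusted p = 0.258, edgeR).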

How the data were processed

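The authors deposited whole-number read counts per gene symbol, 1 column per library, without normalization or pooling. The submitters' processing notes name STAR, HTSeq, DESeq and the build mm9, with no versions. The names that follow the March genes stood 2 rows above their counts: 11942 names were moved down by 2 rows, 13 rows were left without a name, and 24060 named rows remained of 24073. As a check within the table, Uty and Xist were at 0 counts in every library as deposited, and after the move Uty had 1971 to 2917 counts in 7 libraries. Rows without a name held 0.0253% to 0.0323% of a library. Of the 35 genes, 19 had moved names.

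Low counts were removed with filterByExpr (by group), TMM factors were applied and the model was fitted in edgeR 4.0.16 (R 4.3.3) by the quasi-likelihood method with all 9 libraries, so that the groups shared the estimate of spread (3.38 prior and 6 residual degrees of freedom). Intervals are 95% intervals from the t distribution with their sum. P-values were adjusted (Benjamini-Hochberg) over all 13355 genes, with a threshold of 0.01. CPM are TMM scaled, and levels per kilobase use the union of GENCODE M21 exons on GRCm38, a build other than that of the counts. All 35 genes were named. Fold changes were printed for each gene with an adjusted p under 0.05 or a log2 fold change of at least 1 in size and for others where the text needed them, chosen after their values were seen. Some genes of the lists are not reported here by name. The genes and lists were chosen with earlier results of these data known. Before use, the test code was checked on simulated counts, and every value given here comes from the deposited counts. No pair of replicates agreed within counting error (chi-square of 18.8 to 426 per gene). Alternatives were DESeq2 1.42.0, RLE factors, no TMM factors, other count filters, a robust fit, the replicate block, only the groups compared, an adjusted p of 0.05, libraries left out and the names as deposited. The intervals and floors cover these libraries or counting error only.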

Additional observations from a re-analysis of the deposited data

Results flagged for a closer look

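In the NHD13/MSI2 group of 4 libraries, 7 of the 34 MDS genes tested had a library whose gap to the nearest other was above the 95% critical value of Dixon's ratio, and in each case the library was replicate 4. Chance flags about 1 in 20 groups. Over all genes tested 15.8% were flagged in this group, and 7 of 34 is 20.6%. Dnmt3a was at 441 CPM in replicate 4, against 211 to 238 CPM in the other 3. Ezh2 was at 293 CPM, against 112 to 141 CPM. Tet2 was at 234 CPM, against 85.2 to 106 CPM. Smc3 was at 439 CPM, against 258 to 272 CPM. Srsf2 was at 2856 CPM, against 467 to 529 CPM. Npm1 was lower, at 854 CPM, against 1901 to 2108 CPM. Setbp1 was at 0.519 CPM, from 8 counts, against 0 to 0.0499 CPM. The share of reads on ribosomal protein genes in the same library was 1.54%, and its part in these differences was not tested.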

How the results depend on the processing

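With 2 NHD13 libraries, and with replicate 4 apart from the rest of NHD13/MSI2, the counts of calls depended on the setting. The number of MDS genes called in NHD13/MSI2 over NHD13 (1, Idh1) was 0 without TMM factors, with only the 2 groups compared and without control replicates 1 and 3 together, and 3 with the names as deposited (Idh1, Setbp1 and Tet2, the last 2 under counts of other genes); with each library left out in turn it was 0 to 1. Idh1 over NHD13 was past the threshold in 8 of 20 alternatives, with adjusted p from 2.96e-07 (DESeq2) to 0.0478 (edgeR, only the 2 groups compared). The number over control (1) was 5 with DESeq2 (Bcor, Ddx41, Dnmt3a, Idh1 and Smc1a), 2 without TMM factors, 2 without a filter on low counts, 2 with only the 2 groups compared, 6 at an adjusted p under 0.05, 0 without control replicates 1 and 3 together, 4 with the names as deposited and 1 to 5 with each library left out. In NHD13 over control it stayed at 0 in all 20 alternatives.

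For the 83 partner genes tested, the count over NHD13 (2) was 4 with DESeq2, 0 with only the 2 groups compared, 0 without control replicates 1 and 3 and 1 to 5 with each library left out. The count over control (4) was 8 with DESeq2, 10 at an adjusted p under 0.05, 0 without control replicates 1 and 3, 8 with the names as deposited and 2 to 8 with each library left out. That of NHD13 over control (0) was 2 with DESeq2, 2 at an adjusted p under 0.05 and 0 to 2 with each library left out. Over all genes, the count over NHD13 (423) was 1286 with DESeq2, 30 with only the 2 groups compared, 1177 at an adjusted p under 0.05, 38 without control replicates 1 and 3 and 128 to 646 with each library left out. The count over control (1474) was 2589 with DESeq2, 2745 at 0.05, 95 without control replicates 1 and 3 and 647 to 2066 with each library left out. That of NHD13 over control (138) was 594 with DESeq2, 83 with only the 2 groups compared, 386 at 0.05, 7 without control replicates 1 and 3 and 38 to 251 with each library left out. Apart from fewer libraries or genes by construction, the causes were not tested.

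The log2 fold change of Setbp1 in NHD13 over control (1.18) was −0.93 to 1.98 with each library left out, the first without NHD13 replicate 1 and the second without NHD13 replicate 2, and −0.76 with the names as deposited, the cause of the latter being counts of another gene. Without TMM factors the median log2 fold change of all genes was lower by 0.20 over NHD13 and by 0.21 over control, and Idh1 kept its direction, at 0.78 and 1.31. With the replicate number as a block, the MDS genes called were 0 over NHD13 and 3 over control (Dnmt3a, Idh1 and Smc1a), and 203 of all genes were called over NHD13. Correlations of deviations between libraries of the same number were 0.19 and 0.13 for control with NHD13 and −0.072 to 0.061 for the pairs with NHD13/MSI2. Between libraries of unlike number they were −0.19 to 0.049 and −0.15 to 0.15. Deviations were taken from the group mean, so the 2 NHD13 libraries mirror each other. These values therefore cannot decide whether the numbers pair the libraries.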

Other observations

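Ratios of 6 pairs of related genes were formed within each library, per kilobase of exon, where the scaling between libraries cancels. They were looked at after the values of the single genes were known, have no test, and no other gene pairs were computed for comparison. The ratio of Dnmt3a to Dnmt3b, the paired de novo DNA methyltransferases, was 0.352 to 0.460 in control, 0.450 and 0.582 in NHD13 and 0.941 to 1.20 in NHD13/MSI2. Replicate 4, at 1.20, stood beside the 0.941 to 1.09 of the other 3 libraries, although its Dnmt3a level was far from theirs. The ratio of Bcorl1 to Bcor was 0.167 to 0.217 in control, 0.149 and 0.157 in NHD13 and 0.0713 to 0.117 in NHD13/MSI2. The ratio of Stag1 to Stag2 was 0.291 to 0.353 in control, 0.331 and 0.338 in NHD13 and 0.258 to 0.280 in NHD13/MSI2. For these 3 pairs no NHD13/MSI2 library lay within the range of the others. The ratios of Asxl1 to Asxl2, of Ezh2 to Ezh1 and of Idh1 to Idh2 overlapped between NHD13/MSI2 and at least 1 other group.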
